A study of Mus musculus with 21 samples.

Results

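The mRNAs of 8 collagen chains were described in RNA bisulphite libraries of mouse back skin, in NSun2 -/- mice and in WT mice. The 8 genes were taken by name as a list of fibrillar and type VI collagens, Col1a1, Col1a2, Col3a1, Col5a1, Col5a2, Col6a1, Col6a2 and Col6a3. They are 8 of 37310 annotated genes, of which 8482 had at least 1 listed cytosine on the sense strand of an exon. They held 10336 of the 764882 exonic cytosines listed in any library.

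Collagens are secreted proteins in which triple-helical chains, built from repeats of glycine followed by 2 other residues that are often proline, assemble into supramolecular structures. Fibrillar collagens of types I, III and V form the fibrils that give the dermis its tensile strength, and dermal fibroblasts are their main source in skin. Type VI collagen forms beaded microfilaments around cells and close to basement membranes.

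The study compared skin with and without NSun2, an RNA methyltransferase that places 5-methylcytosine (m5C) in tRNAs and in some other RNAs. Bisulphite turns unmethylated cytosines into uracils, so a cytosine that is still read as cytosine was either methylated or not converted, and this share of reads is called percent unconverted here. Both groups were males of a C57Bl6/J CBA F1 background at postnatal day 25, when hair follicles enter anagen, with 4 libraries per genotype that the labels call independent biological replicates. The NSun2 -/- mice carried a gene-trap allele of 1 embryonic stem cell clone of the German Gene Trap Consortium, and the WT mice came from the same breedings. RNA of the whole skin was depleted of ribosomal RNA, converted, amplified over 18 PCR cycles and sequenced as single reads of 100 bp.

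The question for the collagens was whether their mRNAs held cytosines that depended on NSun2, and whether their share of the RNA differed between the genotypes. The lists of cytosines started at 10 reads and differed widely in length between libraries. WT replicates 1 to 4 listed 176613, 156018, 196679 and 187471 cytosines, and NSun2 -/- replicates 1 to 4 listed 665049, 110324, 658169 and 385574. Coverage summed over sense exonic cytosines, in which a read counts once for each cytosine it covers, was 11822023, 11887624, 13350056 and 12807595 in WT. The same sum was 39170246, 6402935, 40009465 and 38455290 in NSun2 -/-. The NSun2 -/- replicates 1, 3 and 4 thus lay above every WT library in depth, and NSun2 -/- replicate 2 lay below every WT library.

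Of all nuclear coding exons together, 2.12, 2.49, 1.83 and 3.61% of reads were unconverted in WT and 3.16, 8.53, 2.06 and 2.86% in NSun2 -/-. NSun2 -/- replicate 2 stood apart with the highest percent unconverted and the smallest depth. A single 5S ribosomal RNA gene, n-R5s109, took 5.76, 16.8, 9.41 and 1.47% of exonic coverage in WT and 4.78, 0.735, 5.16 and 35.2% in NSun2 -/-, so NSun2 -/- replicate 4 stood apart in that measure. The genotype labels were checked on Nsun2 itself, whose summed coverage was 462, 257, 878 and 910 in WT, while it had no listed cytosine in any of the 4 NSun2 -/- libraries.

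The collagen mRNAs were among the most covered of all. The 8 genes together took 19.2, 25.1, 11.4 and 9.36% of exonic coverage in WT and 21.3, 17.2, 16.6 and 9.56% in NSun2 -/-. The genotypes overlapped, with the extremes, WT replicates 2 and 4, both in WT. Of nuclear coding coverage alone, a denominator without the 5S RNA, they took 36.9, 47.8, 23.5 and 17.3% in WT and 33.0, 34.3, 26.6 and 27.7% in NSun2 -/-. By mean share over the 8 libraries, Col1a1 ranked 1, Col3a1 2 and Col1a2 3 among 7400 coding genes. Col6a3 ranked 11, Col6a2 31, Col5a1 32, Col6a1 88 and Col5a2 97.

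The tissue label was compared with markers of dermal fibroblasts, all 10 of which had a listed cytosine in at least 1 library. Their summed share was 0.283, 0.210, 0.197 and 0.187% of exonic coverage in WT and 0.346, 0.425, 0.420 and 0.244% in NSun2 -/-, with Vim the most covered. NSun2 -/- replicates 1, 2 and 3 lay above every WT library, and replicate 4 lay inside the WT range. Singly, Pdgfra, Thy1 and S100a4 were higher in every NSun2 -/- library than in any WT library, as were 5.09% of all 3868 genes. edgeR called 0 of the 9 tested, at a median log2 fold of 1.61 against 0.64 for all genes, and DESeq2 called Thy1 higher, 1 of 61 genes it called so. None of 5 osteoblast markers, Bglap, Bglap2, Ibsp, Sp7 and Alpl, had a listed cytosine, although bone also makes type I collagen. These are bulk samples, in which fewer cells of a type and less RNA per cell cannot be told apart.

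Col1a1 encodes the α1 chain of type I collagen, the main fibril-forming collagen of the dermis. It lies at chr11:94797538-94814356 on the plus strand of mm9 (ENSMUSG00000001506.9), and its coding sequence of 4359 bases runs over 51 exons. Its share of exonic coverage was 9.86, 13.4, 6.05 and 5.15% in WT and 11.1, 8.75, 8.67 and 4.50% in NSun2 -/-. The highest value was in WT replicate 2 and the lowest in NSun2 -/- replicate 4, so the groups overlapped. The means were 8.61% ± 3.77 in WT and 8.27% ± 2.76 in NSun2 -/- (SD, n = 4).

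Col1a2 encodes the α2 chain that joins the α1 chains in the type I trimer (chr6:4454814-4491543, plus strand). Its share was 3.96, 5.49, 2.16 and 1.72% in WT and 3.88, 3.14, 2.89 and 2.02% in NSun2 -/-. The WT libraries spanned the wider range, and all 4 NSun2 -/- libraries lay inside it. Per coding cytosine, the ratio of Col1a1 to Col1a2 coverage was 2.38, 2.26, 2.62 and 2.88 in WT and 2.69, 2.60, 2.77 and 2.11 in NSun2 -/-. The ratio stayed above 2 in all 8 libraries and the genotypes overlapped.

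Col3a1 encodes the chain of type III collagen, which co-assembles with type I in the fibrils of extensible tissues such as skin (chr1:45368383-45406551, plus strand). Its share was 4.38, 5.31, 2.75 and 2.01% in WT and 5.08, 3.84, 4.03 and 2.35% in NSun2 -/-, again with WT replicates 2 and 4 at the extremes. Per coding cytosine, Col1a1 coverage over Col3a1 coverage was 1.83, 2.06, 1.80 and 2.07 in WT and 1.79, 1.82, 1.76 and 1.55 in NSun2 -/-. The genotypes overlapped in this ratio through NSun2 -/- replicate 2, which lay above WT replicate 3.

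Col5a1 and Col5a2 encode chains of type V collagen, a minor component that starts fibrils and limits their width. The share of Col5a1 (chr2:27741945-27895034, plus strand) was 0.165, 0.155, 0.0836 and 0.0847% in WT and 0.227, 0.230, 0.227 and 0.117% in NSun2 -/-. NSun2 -/- replicates 1, 2 and 3 lay above every WT library, and replicate 4 lay inside the WT range. The share of Col5a2 (chr1:45431166-45560127, minus strand) was 0.0688, 0.0855, 0.0365 and 0.0258% in WT and 0.0976, 0.0771, 0.0789 and 0.0503% in NSun2 -/-. There the highest library was NSun2 -/- replicate 1 and the lowest WT replicate 4, with overlap between them.

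Col6a1, Col6a2 and Col6a3 encode the α1, α2 and α3 chains that combine in the type VI monomer. The share of Col6a1 (chr10:76171537-76188913, minus strand) was 0.0891, 0.0567, 0.0371 and 0.0467% in WT and 0.0841, 0.111, 0.0790 and 0.0626% in NSun2 -/-. WT replicate 1 lay above 3 of the NSun2 -/- libraries. The share of Col6a2 (chr10:76058507-76086375, minus strand) was 0.187, 0.167, 0.102 and 0.114% in WT and 0.185, 0.258, 0.171 and 0.122% in NSun2 -/-, and NSun2 -/- replicate 4 lay below WT replicates 1 and 2. The share of Col6a3 (chr1:92663435-92740529, minus strand), whose chain is much the longest of the type VI chains, was 0.491, 0.452, 0.201 and 0.204% in WT and 0.617, 0.749, 0.467 and 0.339% in NSun2 -/-. Its genotypes overlapped, with NSun2 -/- replicates 3 and 4 below WT replicate 1 and replicate 4 also below WT replicate 2.

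**Figure D1:**
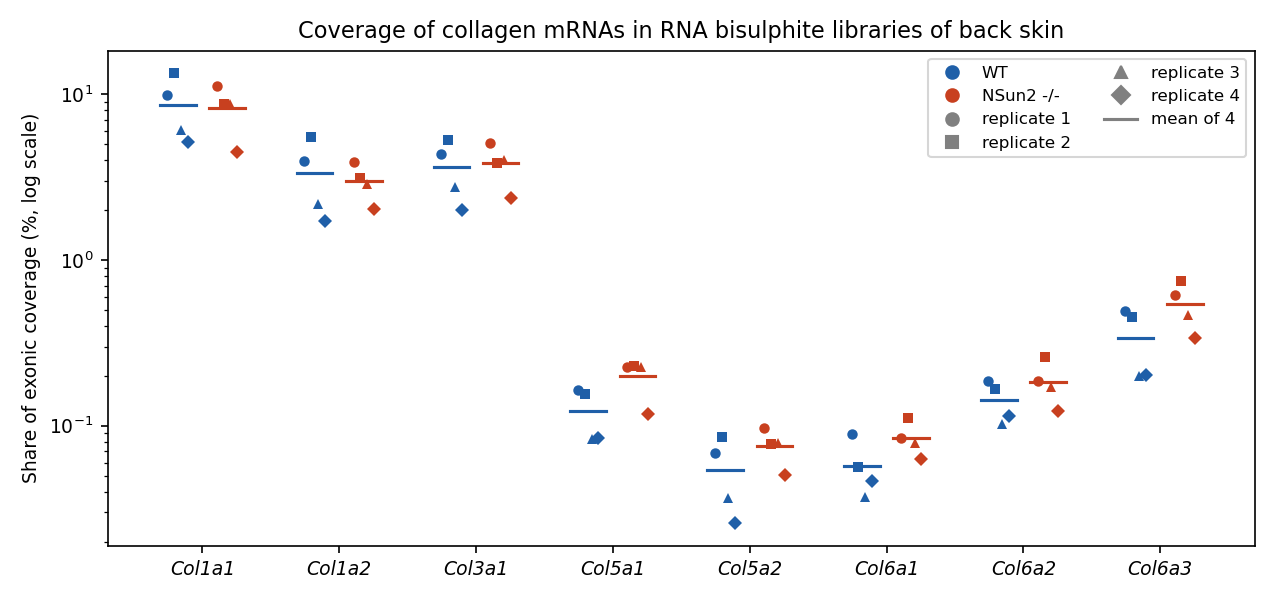
Share of exonic coverage (%, log scale) of each collagen mRNA in the 4 WT (blue) and 4 NSun2 -/- (red) libraries, with symbols for replicates and bars for means. Col1a1, Col1a2 and Col3a1 sit between 1.72 and 13.4%, the type V and type VI chains between 0.0258 and 0.749%, and the genotypes overlap for each gene.

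Levels of the chains were compared per coding cytosine and per 1000000 of exonic coverage, since longer mRNAs collect more reads. On this scale the WT means were 61.4 for Col1a1, 31.7 for Col3a1 and 25.3 for Col1a2. They were 1.60 for Col6a2, 1.47 for Col6a3, 0.699 for Col6a1, 0.639 for Col5a1 and 0.455 for Col5a2. The libraries differed widely, with SDs of 13.2 for Col3a1 and 13.5 for Col1a2, more than the distance between the means, but within a library the order of some chains was fixed. Col3a1 lay above Col1a2 and Col5a1 above Col5a2 in all 8 libraries, while Col6a2 and Col6a3 changed places between libraries, as did Col6a1 and Col5a1. The order in the NSun2 -/- means differed at the type VI chains, with 2.34 for Col6a3 and 2.09 for Col6a2.

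Within the type VI trimer, Col6a1 coverage over Col6a2 coverage per coding cytosine was 0.504, 0.379, 0.399 and 0.449 in WT and 0.481, 0.454, 0.485 and 0.536 in NSun2 -/-. Col6a1 was thus the less covered chain in all 8 libraries, and the genotypes overlapped. Within type V, Col5a1 over Col5a2 was 1.48, 1.12, 1.42 and 2.16 in WT and 1.36, 1.98, 1.69 and 1.36 in NSun2 -/-, with the WT range enclosing the NSun2 -/- values.

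None of the 8 mRNAs passed the test on coverage. In edgeR's quasi-likelihood fit over 3868 genes, scaled to exonic coverage, 0 of the 8 collagens were called lower and 0 higher at an adjusted p under 0.05, and of all genes 0% were called lower and 0% higher. At an unadjusted p under 0.05 the fit held 58 genes lower (1.5%) and 178 higher (4.6%), 0 of them among the 8. DESeq2 called 33 genes lower and 61 higher and limma 19 lower and 3 higher, again with none of the 8 among them. Not one of the 8 had every NSun2 -/- library above or below every WT library, against 5.09% of all genes above and 1.47% below.

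The median of all genes was itself at a log2 fold of 0.64 in that fit. With TMM scaling the median was 0.31, and with the 1202 genes that had cytosines listed in all 8 libraries, counted over those cytosines, it was 0.06. Fitted log2 folds were -0.06 for Col1a1 (SE 0.43), -0.16 for Col1a2 (SE 0.41) and 0.08 for Col3a1 (SE 0.39), each with an adjusted p of 0.997. Relative to the median of all genes these were -0.70, -0.80 and -0.56, but -0.0029, -0.11 and 0.14 over cytosines listed in all 8 libraries, so the distance from the median depended on the setting. Without reference to the median, Col1a1 turned to 0.05 over shared cytosines and Col3a1 to -0.29 with TMM. Col5a1 had a log2 fold of 0.72 (SE 0.33) and the smallest adjusted p of the 8, 0.893, with 3 of 4 NSun2 -/- libraries above the WT range. Relative to the median of all genes it stood at 0.07, and over shared cytosines at 0.56. For Col5a2, Col6a1, Col6a2 and Col6a3 the log2 folds were 0.49, 0.55, 0.37 and 0.69, or -0.16, -0.09, -0.27 and 0.05 relative to that median, with an adjusted p of 0.997 each. Over shared cytosines they stood above the median, at 0.38, 0.36, 0.34 and 0.62.

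The minor chains were also set against the 3 major mRNAs of the same library, which removes the denominator shared with all other RNAs. This scaling was added after the values had been seen. Per 1000 of the summed Col1a1, Col1a2 and Col3a1 coverage, over the 808 cytosines of Col6a3 listed in all 8 libraries, Col6a3 had 23.3, 16.6, 17.3 and 21.8 in WT and 25.9, 40.1, 25.3 and 31.1 in NSun2 -/-. Every NSun2 -/- library lay above every WT library, with NSun2 -/- replicate 2 the highest. The means were 19.7 ± 3.29 and 30.6 ± 6.86 (SD, n = 4), a ratio of 1.55.

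Col6a3 was the 1 gene of the 8 whose genotypes did not overlap in this measure, while 0.998% of 1202 genes lay above and 1.25% below. In the fit scaled to the 3 mRNAs its log2 fold was 0.63 (SE 0.42), with an adjusted p of 0.995 in edgeR, so it did not pass. Over every listed cytosine, Col5a1 and Col5a2 also had every NSun2 -/- library above every WT library. Col5a1 then had 9.06, 6.41, 7.62 and 9.54 in WT and 11.3, 14.6, 14.6 and 13.2 in NSun2 -/-. The shares of 0.998 and 1.25% above were counted over shared cytosines, so no share of all genes stands beside this separation. Over cytosines listed in all 8 libraries this separation was gone, since Col5a1 had 6.23, 4.12, 6.37 and 7.93 in WT and 6.53, 11.3, 8.64 and 7.93 in NSun2 -/-.

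The number of listed cytosines of the 8 genes was 7185, 6974, 5893 and 5728 in WT and 10005, 6292, 9594 and 9068 in NSun2 -/-. The 3 deep NSun2 -/- libraries listed the most, and NSun2 -/- replicate 2 lay inside the WT range. Floors of 10 reads or more were then set library by library, a setting called the floor scaled to depth here. They were 17.4, 18.6, 16.1 and 15.3 reads in WT and 56.7, 53.5 and 31.9 in NSun2 -/- replicates 1, 3 and 4. These floors were not proportional to summed exonic coverage, in which NSun2 -/- replicates 1 and 4 lay close together. With them the numbers were 5777, 5282, 4651 and 4607 in WT and 5917, 6292, 5743 and 6007 in NSun2 -/-. WT replicate 1 lay above NSun2 -/- replicate 3. Col1a1 had a mean of 1418 listed cytosines in WT and 1605 in NSun2 -/-, out of 1929 in its exons. Col5a1 had 757, 727, 499 and 491 listed in WT and 1503, 588, 1538 and 1241 in NSun2 -/-, the widest range in number among the 8 genes.

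Reads fell unevenly along the chains. With the coding sequence of each gene divided into 3 equal parts from its 5′ end, the first part of Col1a1 held 47.1, 53.2, 46.8 and 43.0% of its coding coverage in WT and 52.0, 43.8, 49.9 and 51.7% in NSun2 -/-. In Col3a1 the first part held 14.3, 11.5, 11.6 and 14.0% in WT and 12.7, 16.3, 12.8 and 15.0% in NSun2 -/-, so its coverage lay mostly in the other parts. In Col6a3 the first part held between 62.5 and 70.5% over the 8 libraries. The middle part of Col5a1 held 0 to 8.63% and had no listed cytosine in WT replicates 3 and 4.

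Coding sequence carried most of the collagen reads, 94.8, 95.8, 96.0 and 94.6% in WT and 95.9, 94.0, 96.2 and 94.4% in NSun2 -/-. No cytosine was listed on the antisense strand of any of the 8 genes. Introns of Col1a1 held 1.51 to 3.65% of the sense coverage of the gene, and those of Col1a2 1.89 to 5.77%, the highest share of the 3 major genes.

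The shares of the chains moved together from library to library. Over n = 8 libraries the Pearson correlation of log2 shares was 0.961 between Col1a1 and Col1a2, 0.972 between Col1a1 and Col3a1 and 0.958 between Col6a2 and Col6a3. It was lowest between Col1a2 and Col6a1, at 0.473. These are descriptions over libraries that share their denominator and depth with every gene. The 5 other genes most like the 8 in this measure, among 185 candidates, were Sh3pxd2a, Fstl1, Cd248, Tnxb and Col4a2, in that order. Their mean correlations with the 8 ran from 0.870 for Sh3pxd2a to 0.810 for Col4a2.

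Genes of collagen processing and of the surrounding matrix were read from a list of 67, of which 66 were annotated, 58 had listed cytosines and 48 were tested. In edgeR 0 were called in either direction, 9 had an unadjusted p under 0.05 beside 236 of all 3868 genes, and the median log2 fold was 0.76 against 0.64 for all genes. The distance between the medians depended on the setting, with 0.42 against 0.06 over shared cytosines and 0.80 against 0.13 with the floor scaled to depth. DESeq2 called 0 of them, limma 0 with a pseudocount of 1 and 1 with a pseudocount of 10, the thrombospondin gene Thbs2. Without a filter on low counts edgeR called 4 of 58, all higher, and without NSun2 -/- replicate 2 it called 8 of 54 tested, all higher. Of the genes called so, Fbn1, Thbs2 and Loxl2 were also tested in the main fit. The others, such as Col7a1, Eln and Col2a1, had too few counts for it, and no conclusion is drawn from their direction. The same fits called 88 of 8482 and 1097 of 5188 genes higher, the latter beside a median of all genes of 1.36. The summed share of the list was 3.02, 2.61, 1.87 and 1.77% in WT and 3.63, 3.56, 3.45 and 1.88% in NSun2 -/-. NSun2 -/- replicates 1 to 3 lay above every WT library, and replicate 4 lay between WT replicates 3 and 2.

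The most covered gene of the list was Sparc, which encodes a collagen-binding matrix protein, with 0.909, 0.673, 0.588 and 0.768% in WT and 0.776, 1.21, 0.736 and 0.519% in NSun2 -/-. Serpinh1, the gene of the collagen chaperone HSP47, had 0.527, 0.478, 0.225 and 0.183% in WT and 0.290, 0.347, 0.420 and 0.222% in NSun2 -/-. The genotypes overlapped in both. Col4a1, Tnxb and Fbn1 followed, which encode a basement membrane collagen chain, tenascin-X and fibrillin-1, with log2 folds of 0.38, 0.61 and 1.13 and adjusted p values of 0.997, 0.997 and 0.334. Fbn1 had 0.121, 0.0992, 0.107 and 0.0427% in WT and 0.242, 0.263, 0.172 and 0.135% in NSun2 -/-, and every NSun2 -/- library lay above every WT library. The list held 4 such genes among the 48 tested, Fbn1 included, beside 5.09% of all 3868 genes.

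Markers of other cell types were summed in the same libraries, since shares of exonic coverage depend on all other RNAs. Of 10 hair follicle genes, 9 were annotated and tested, and their sum was 1.74, 1.34, 4.42 and 9.27% in WT and 0.602, 0.255, 0.0530 and 0.265% in NSun2 -/-. Every NSun2 -/- library lay below every WT library in this sum. Singly 8 of the 9 genes had this separation, beside 1.47% of all 3868 genes. In WT the libraries with the highest follicle share, replicates 3 and 4, had the lowest collagen share. In NSun2 -/- that order did not hold, since replicate 1 had both the highest follicle share, 0.602%, and the highest collagen share, 21.3%. The most covered was Tchh, edgeR called 0 of the 9 and gave 9 an unadjusted p under 0.05, DESeq2 called 6 lower and limma 7 lower. Of all 3868 genes 58 had such a p in the lower direction, and DESeq2 called 33 lower and limma 19. Keratinocyte markers summed to 1.17, 0.906, 1.64 and 1.71% in WT and 0.958, 1.04, 1.30 and 0.683% in NSun2 -/-, with Dsp the most covered and all 10 listed. edgeR called 0 of them, and Dsp was among the 33 genes that DESeq2 called lower. Their part in the collagen shares was not tested.

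Adipocyte markers, led by Scd1 and all 10 listed, summed to 0.872, 0.578, 0.565 and 0.527% in WT and 0.666, 1.06, 2.10 and 0.438% in NSun2 -/-. Skeletal muscle markers, led by Ttn and all 10 listed, summed to 1.01, 1.32, 0.714 and 0.243% in WT and 1.41, 2.67, 1.93 and 1.05% in NSun2 -/-. Both sums overlapped between the genotypes, but singly the muscle genes Acta1, Myh1, Ttn and Mylpf did not, with NSun2 -/- higher, as in 5.09% of all genes. edgeR called 0 of the 10, while Myh1 was among the 61 genes that DESeq2 and the 3 that limma called higher. Smooth muscle markers, led by Des and 4 of 5 listed without Cnn1, summed to 0.0283, 0.0275, 0.0334 and 0.0226% in WT and 0.0662, 0.0708, 0.0869 and 0.0394% in NSun2 -/-, all NSun2 -/- above all WT. Taken singly, only Des separated the genotypes, a gene that skeletal muscle expresses too. Their part in the collagen results was not tested. Leukocyte markers, led by Lyz2 and 4 of 5 listed without Cd3e, summed to 0.0361, 0.0415, 0.0246 and 0.0170% in WT and 0.0498, 0.0379, 0.0581 and 0.0222% in NSun2 -/-, with overlap. Singly, Cd74 and Csf1r were higher in every NSun2 -/- library, beside the same 5.09%. edgeR called 0 of the 3 tested, and the 61 of DESeq2 included Csf1r, which had listed cytosines in 1 of the 4 WT libraries. Of the endothelial markers Cdh5, Kdr and Vwf had no listed cytosine, and Pecam1 and Tek were listed in NSun2 -/- alone, at a sum of 0.00159% in replicate 1 and 0.000732% in replicate 3.

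The share of exonic coverage says how much of an mRNA was sequenced, and the percent unconverted says how its cytosines were read. Of all Col1a1 reads, 2.07, 2.35, 1.97 and 3.42% were unconverted in WT and 2.52, 7.19, 1.88 and 2.79% in NSun2 -/-. NSun2 -/- replicate 2 was the highest, as in all nuclear coding exons, and the other 3 lay below or inside the WT range. Col1a2 had 2.50, 2.53, 2.38 and 5.75% in WT and 3.71, 10.4, 2.69 and 3.60% in NSun2 -/-, with WT replicate 4 and NSun2 -/- replicate 2 far above the others of their genotype. Col3a1 had 2.18, 2.57, 1.99 and 3.51% in WT and 3.00, 8.27, 2.13 and 3.03% in NSun2 -/-. NSun2 -/- replicate 2 was again the highest and WT replicate 4 the next.

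Col5a1 had 2.13, 2.46, 2.45 and 3.33% in WT and 4.34, 8.98, 2.66 and 3.95% in NSun2 -/-. Here WT replicate 4 lay above NSun2 -/- replicate 3 and below the other NSun2 -/- libraries. In the other members, Col5a2 and the 3 type VI chains, the percent ran from 1.55% for Col6a3 in WT replicate 3 to 14.0% for Col6a1 in NSun2 -/- replicate 2, and the genotypes overlapped in each. The WT means of the 8 genes lay between 2.25% ± 0.726 for Col6a3 and 3.32% ± 1.82 for Col6a1 (SD, n = 4).

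**Figure D2:**
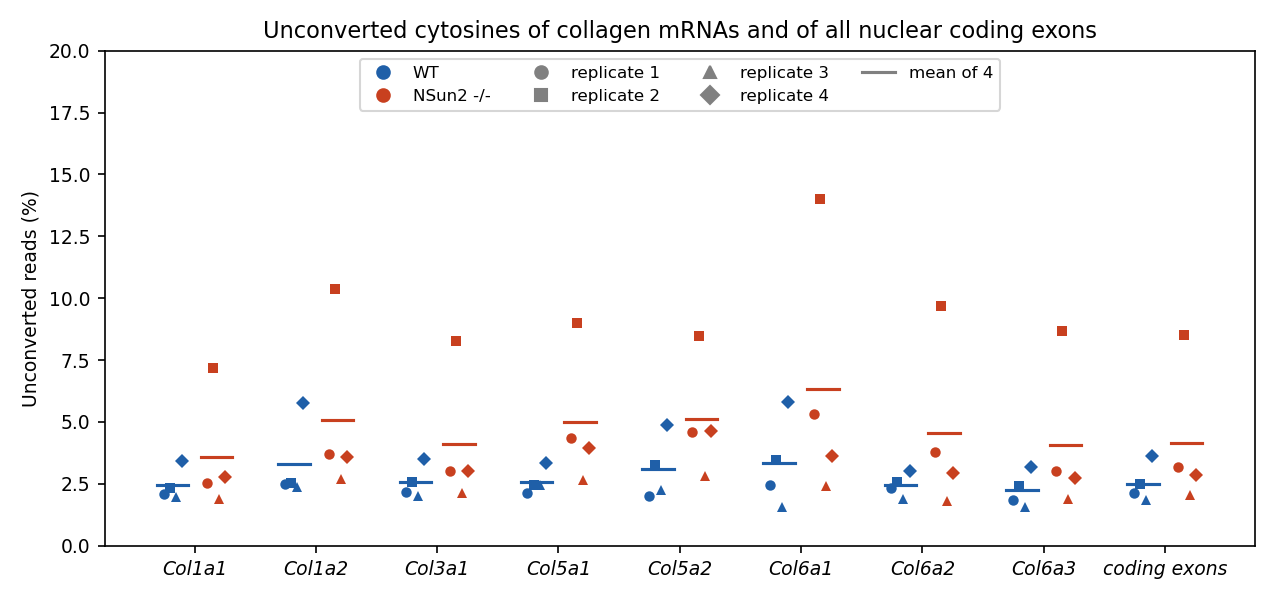
Percent of unconverted reads of each collagen mRNA and of all nuclear coding exons in the 4 WT (blue) and 4 NSun2 -/- (red) libraries, with symbols for replicates and bars for means. NSun2 -/- replicate 2, at 8.53% in all coding exons, is the highest library for each gene.

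No gene's percent passed the test, which missed most of the changes put into percents per gene in simulated data. In edgeR, over 2368 genes, 0 of the 8 collagens were called lower and 0 higher, against 0% and 0% of all genes, while 5 genes had an unadjusted p under 0.05 in the lower direction (0.211%) and 90 in the higher (3.8%), none of them among the 8. Limma on the logit called 0 genes as well and gave 109 an unadjusted p under 0.05. The log2 odds of the 8 lay between 0.39 for Col1a1 and 0.84 for Col5a1, beside a median of 0.52 over all genes, with adjusted p values of 0.784 and 0.773. Without NSun2 -/- replicate 2 the log2 odds were -0.02 for Col1a1 and 0.50 for Col5a1. A scaling to all coding exons of the library, the 8 genes included, was added after the values had been seen. In it Col1a1, Col1a2 and Col3a1 stood at -0.17, -0.02 and -0.04, the opposite side of 0 from the unscaled fit.

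Single cytosines were then tested, 109414 in all exons and 5922 in the 8 genes, of which Col1a1 had 1386, Col1a2 1173, Col3a1 1067, Col5a1 498, Col5a2 260, Col6a1 256, Col6a2 344 and Col6a3 938. A call needed an adjusted p under 0.05 in edgeR and a difference of at least 10 points. Across all exons 8 cytosines were called lower in NSun2 -/- (0.00731%) and 0 higher (0%), and 1 of these lay in the 8 genes. In the 8 genes 11 lower and 125 higher had an unadjusted p under 0.05, and in all exons 529 lower and 1728 higher. By direction the counts differed with the test. Limma on the logit gave 3128 lower and 1331 higher in all exons, and 13810 and 582 when taken relative to coding exons. Its logit adds a constant to both counts, so at a cytosine without unconverted reads it is lower in a deeper library. The part of depth in these directions was not tested. Limma called 4 cytosines in all exons, none in the 8 genes.

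The called cytosine lies at chr11:94803372 in exon 17 of Col1a1, on the plus strand, and is the first base of a CAG codon at base 1066 of the coding sequence. In WT it was unconverted in 870 of 5638 reads, 1667 of 11930, 672 of 4725 and 372 of 2366, or 15.4, 14.0, 14.2 and 15.7%. In NSun2 -/- it was unconverted in 335 of 33846 reads, 61 of 2720, 278 of 27564 and 137 of 11625, or 0.990, 2.24, 1.01 and 1.18%. The WT libraries lay close together, all far above the highest NSun2 -/- library, replicate 2. The 95% Wilson intervals ran from 13.3 to 15.2% in WT replicate 3 and from 14.3 to 17.2% in WT replicate 4, and from 1.75 to 2.87% in NSun2 -/- replicate 2. Reads amplified by PCR without molecular identifiers are not independent molecules, so such intervals cover counting error only.

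The means were 14.8% ± 0.868 in WT and 1.35% ± 0.598 in NSun2 -/- (SD, n = 4), a difference of -13.5 points and a log2 odds of -3.76. WT was 11.0 times NSun2 -/-. The test of edgeR gave an adjusted p of 2.22e-06, with all 4 NSun2 -/- libraries below all 4 WT libraries. Limma on the logit gave the same difference an adjusted p of 0.331, and limma relative to all coding exons of the library, added after the values had been seen, gave 0.0046.

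Exon 17 spans chr11:94803330-94803428, 99 bases that encode triple-helix repeats. It is printed here with the called cytosine, base 43 of the exon, in capitals, since the cytosines around it serve as its background.
Col1a1 exon 17: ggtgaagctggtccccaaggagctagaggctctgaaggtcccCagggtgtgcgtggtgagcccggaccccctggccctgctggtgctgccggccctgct
The other 31 cytosines of the exon had medians of 1.03, 1.41, 0.910 and 1.56% in WT and 0.967, 2.13, 0.853 and 1.06% in NSun2 -/-. None of the 31 reached 4% in any library, and their WT means ran from 0.824 to 2.18%. The called cytosine thus stood out from its neighbours in all 4 WT libraries and lay among them in all 4 NSun2 -/- libraries, where the range of the 31 in replicate 2 was 1.06 to 3.43%. A window of 61 bases around it occurred at 1 place in the genome, both as written and with every cytosine read as thymine.

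**Figure D3:**
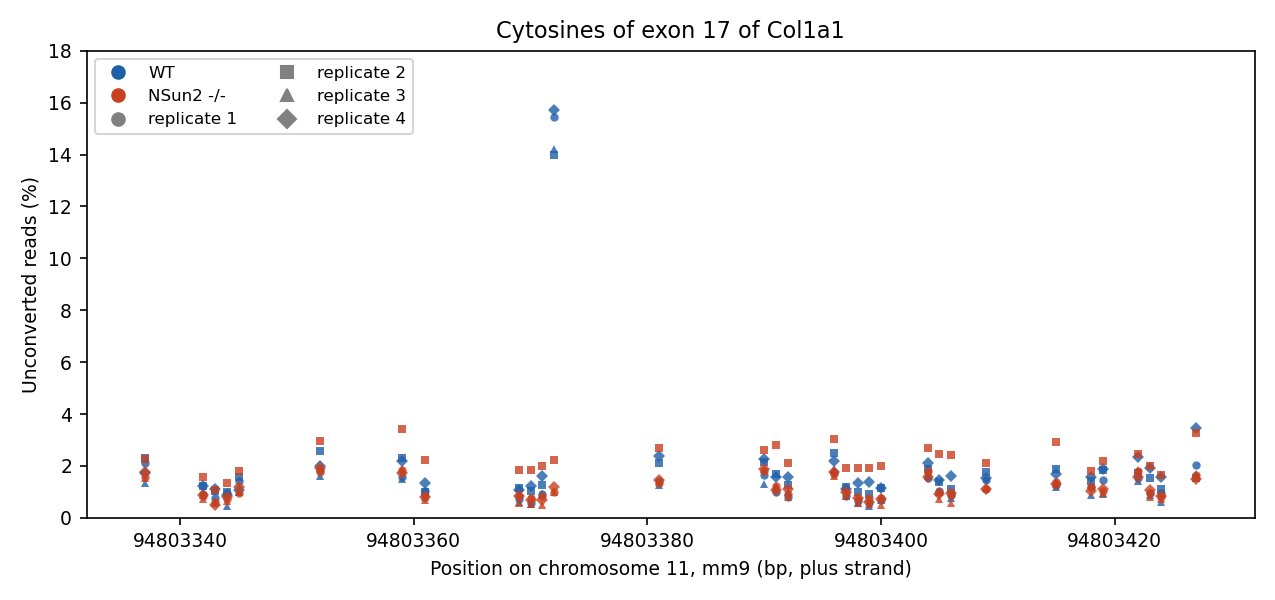
Percent of unconverted reads at each cytosine of exon 17 of Col1a1, by position on chromosome 11, in the 4 WT (blue) and 4 NSun2 -/- (red) libraries. At position 94803372 the WT libraries sit between 14.0 and 15.7% and the NSun2 -/- libraries between 0.990 and 2.24%.

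Depth allowed a close look at the major chains. At 191 cytosines of the 8 genes every library had at least 1000 reads, 135 in Col1a1, 13 in Col1a2 and 43 in Col3a1. Their median was 1.56% in WT, and the called cytosine was the 1 among them at 5% or more in WT. The next highest in WT was chr11:94812175 in Col1a1, with 3.46, 5.15, 3.75 and 4.19% in WT and 3.45, 6.08, 4.02 and 4.17% in NSun2 -/-. Among the others the largest excess of WT over NSun2 -/- was 0.199 points, in Col1a1. In Col1a2 and Col3a1 the WT mean lay below the NSun2 -/- mean at each of these deeply read cytosines.

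Along the whole Col1a1 coding sequence 1169 cytosines were tested, with a median difference of 1.34 points, NSun2 -/- minus WT. The called cytosine had the lowest difference, followed at -11.9 points by one that was not called, and the highest was 16.6 points. No cytosine in the other 7 genes was called, in either direction.

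**Figure D4:**
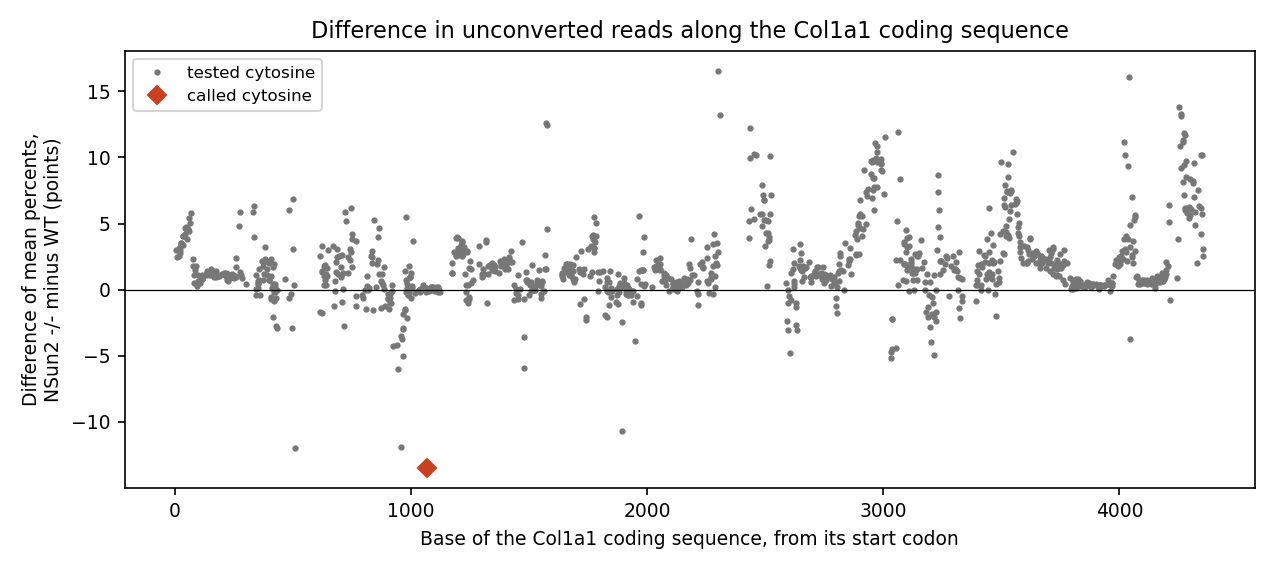
Difference in mean percent unconverted, NSun2 -/- minus WT (points), at the 1169 tested cytosines of the Col1a1 coding sequence, by base from the start codon. The called cytosine (red diamond) sits at -13.5 points, and the others (grey) between -11.9 and 16.6 points.

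The letters around the called cytosine recur in other collagen mRNAs. The 8 letters CCCCAGGG, with the tested cytosine the fourth of them, stood at 4 other tested cytosines of 3 genes, and none of the 4 was called. The deepest of them was chr11:94803716, in Col1a1, with 249 to 1688 reads per library and 3.84, 8.97, 6.83 and 7.89% unconverted in WT against 8.26, 15.1, 3.20 and 5.77% in NSun2 -/-. Its genotypes overlapped. The shorter CAGGG, starting at the cytosine, stood at 60 other tested cytosines in all 8 genes and CNGGG at 131, again with none called. A match of letters is a description and no sign of a methylated site.

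Whether groups separated was also counted without a test, at the 5081 collagen cytosines listed in all 8 libraries. At 7 of them (0.138%) every NSun2 -/- library lay below every WT library, against 0.257% of all exonic cytosines. At 139 (2.74%) every NSun2 -/- library lay above, against 2.93%. Neither share exceeded that of all exonic cytosines. The 7 included the called cytosine and, as the largest difference among the others, chr11:94806117 in exon 28 of Col1a1, chosen after its values were seen. It had 21.8, 33.3, 24.0 and 20.6% in WT and 17.4, 15.5, 10.3 and 13.7% in NSun2 -/-, at 68 to 101 reads in WT, and an adjusted p of 1. Its 30 bases, with the cytosine in capitals, end in the intron that follows the exon.
Col1a1 chr11:94806103-94806132: gctcccctggattcCaggtgaggcttcatg

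For each gene the cytosine with the highest mean in WT was taken next. In the 3 major mRNAs it lay in an annotated exon outside the main transcript. It was chr11:94807248 for Col1a1, with 95.5, 91.3, 84.6 and 92.9% in WT and 94.9, 94.0 and 90.9% in NSun2 -/- replicates 1, 3 and 4, where replicate 2 had no listed value. For Col1a2 it was chr6:4484706, with means of 92.8 and 91.8%, and for Col3a1 chr1:45385354, with 86.0 and 85.6%, WT first. The Col1a2 site had no listed value in NSun2 -/- replicate 2 either. All 3 were read as cytosine in most reads of both genotypes, at 11 to 272 reads in each library that listed them, and none was called.

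In the other genes the highest cytosine was coding and thinly read. It was chr2:27807021 for Col5a1, with means of 18.9 and 13.5%, WT first. For Col5a2 it was chr1:45452934 with means of 24.2 and 32.1%, for Col6a1 chr10:76184657 with 15.9 and 17.8%, the former resting on 43.8% in WT replicate 1, and for Col6a2 chr10:76059366 with 17.2 and 17.1%, in the same order. For Col6a3 it was chr1:92712597, with 0, 28.6 and 76.9% in WT replicates 1, 2 and 4 at 11 to 14 reads, and 48.1, 60.0, 63.6 and 60.0% in NSun2 -/-. None of these 5 was called, at 10 to 30 reads in each WT library that listed them. The sequences around the 8 cytosines and the called one are given on the strand of each gene, with the cytosine in capitals, for comparison of their letters.
Col1a1 chr11:94803358-94803387, called: gctctgaaggtcccCagggtgtgcgtggtg
Col1a1 chr11:94807234-94807263: taagtcaaccttccCttcccatgagccctt
Col1a2 chr6:4484692-4484721: agtttgacgccattCtgattctcattacca
Col3a1 chr1:45385340-45385369: cagcacacagcgttCatgagtaaactcctt
Col5a1 chr2:27807007-27807036: ggtccccaccagcaCcactgttacctccaa
Col5a2 chr1:45452919-45452948: ggagaaaggcatggCtggaggacatggccc
Col6a1 chr10:76184642-76184671: catcctctagagggCtacaaggaaccatgc
Col6a2 chr10:76059351-76059380: ttgcaatatggcagCcagaatcagcaacag
Col6a3 chr1:92712582-92712611: ccgctgagttccgcCctgctcccttgcaaa

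Cytosines with a WT mean of 20% or more numbered 122 of the 5922 in the 8 genes (2.06%) and 1.16% in all exons. They were spread unevenly over the regions. Coding sequence held 54 of 5258 tested (1.03%), 3′ untranslated regions 33 of 443 (7.45%), 5′ untranslated regions 0 of 131, and annotated exons outside the main transcripts 35 of 90 (38.9%). With the NSun2 -/- mean in place of the WT mean the numbers were 100, 99, 12 and 30. That is 241 in the 8 genes, and in all exons it was 2502 in place of 1264. By gene those of WT were 43 in Col1a1, 50 in Col1a2, 26 in Col3a1, 1 in Col5a2 and 2 in Col6a3, and none was seen in Col5a1, Col6a1 and Col6a2.

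Reads were also pooled by region. Of reads in the coding sequence of the 8 genes, 2.10, 2.40, 1.94 and 3.51% were unconverted in WT and 2.73, 7.57, 1.96 and 2.83% in NSun2 -/-. In their 3′ untranslated regions it was 6.19, 5.82, 7.47 and 17.2% in WT and 13.7, 27.3, 9.24 and 11.7% in NSun2 -/-. In the pooled reads the 3′ untranslated regions lay above the coding sequence in each library. Gene by gene it held in every library for Col1a1, Col1a2 and Col3a1 alone, while Col5a1 in WT replicate 1 had 1.49 against 2.20%. In the 5′ untranslated regions it was 2.25, 2.61, 2.36 and 5.43% in WT and 3.78, 13.7, 1.97 and 3.85% in NSun2 -/-, above the coding sequence in each library, if barely so in NSun2 -/- replicate 3. Gene by gene that order did not hold throughout, as Col1a1 in WT replicate 1 had 1.98 against 2.04%.

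The base after the cytosine made a small difference. In collagen coding sequence, cytosines before an A were unconverted in 2.56, 3.11, 2.43 and 3.68% of reads in WT and 3.15, 7.78, 2.47 and 3.27% in NSun2 -/-. Before a T it was 1.86, 2.03, 1.63 and 3.35% in WT and 2.46, 7.53, 1.65 and 2.57% in NSun2 -/-. The first exceeded the second in all 8 libraries, by 0.252 points in NSun2 -/- replicate 2 to 1.09 points in WT replicate 2. All nuclear coding exons had the same order in all 8 libraries, with 2.45% before A and 1.86% before T in WT replicate 1. The 8 genes made up 17.3 to 47.8% of the coverage of these exons. Coding exons without the 8 genes were not looked at separately, so whether the order was particular to collagens was not tested.

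Triple-helix repeats are written mainly with glycine, proline and alanine codons, and CCN codons for proline made up 19.0% of the codons of Col1a1, 19.5% of Col3a1 and 7.64% of Col6a3. Their cytosines were unconverted in 1.85, 2.03, 1.67 and 3.43% of reads in WT and 2.43, 7.12, 1.65 and 2.48% in NSun2 -/-. The cytosine of the glycine codon GGC was unconverted in 2.75, 3.23, 2.62 and 4.57% in WT and 3.43, 8.56, 2.88 and 3.58% in NSun2 -/-. GGC lay above CCN in all 8 libraries, and neither separated the genotypes. By position in the codon, bases at position 2 had the lowest percent in 7 of the 8 libraries. The exception was WT replicate 4, where position 3 had 3.41% and position 2 had 3.47%.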

How the data were processed

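The authors aligned bisulphite reads with Bismark 0.7.6 and deposited counts of unconverted and converted reads per cytosine, not normalized, for cytosines with at least 10 reads. The deposited percent is unconverted reads over all reads at the cytosine, times 100. Listed positions were checked against mm9, where they fall on cytosines of either strand, and the strand was read from the base. Exons came from GENCODE vM1. Cytosines in sense exons were summed per gene, with reads counted once per cytosine. The main transcript was the CCDS transcript, or for Col6a3 the one with the longest coding sequence.

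Coverage was tested with edgeR 4.0.16 (R 4.3.3), scaled to all sense exonic coverage after its filter on low counts. Its fit gives no SE, so the SE of a log2 fold was taken as its absolute value over the square root of the F statistic. Percents were tested with edgeR on both counts, with a term per library. A cytosine needed 10 reads, and a gene 10 reads in sum, in at least 3 libraries of each genotype. P-values were adjusted by Benjamini-Hochberg over everything tested. limma 3.58.1 and DESeq2 1.42.0 served as alternatives, and all else was done in Python 3.11.15 (pysam 0.24.0, scipy 1.17.1, numpy 2.4.6, pandas 2.3.3). The calls were tested on simulated data, where most of the changes put into percents per gene were missed. Part of the changes put into coverage and into single cytosines was missed too. The simulated spread between libraries was a set value and was not taken from these data. Intervals are Wilson intervals at 95%. Other alternatives were other scalings, denominators and read minimums, the replicate block and leaving out each library.

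The members and the lists were chosen with earlier results of these data known. Named are all members, the cytosines called in them (up to 5 each way), the cytosine with the highest WT mean per member, the 5 most covered genes of a list of 67 collagen and matrix genes with up to 6 called each way, and the 5 genes most alike. Marker lists covered dermal fibroblasts, keratinocytes, hair follicle, adipocytes, skeletal muscle, endothelium, leukocytes, osteoblasts and smooth muscle. The tRNA-seq and Pol III ChIP-seq counts hold no collagen mRNA and were left out.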

Additional observations from a re-analysis of the deposited data

Results flagged for a closer look

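Of 52 groups of 4 libraries looked at, 9 were flagged for a library far from the other 3. Its gap to the nearest of them took up 0.83 to 0.978 of the range of the group, and smaller gaps were not counted. Chance alone gives about 1 in 20 in independent groups. These groups hold the same libraries again and again, so the 9 of 52 cannot be set against that rate. Of the 9, 7 lay in NSun2 -/- replicate 2. They were the percent unconverted of all nuclear coding exons, 8.53%, of Col1a2, 10.4%, of Col3a1, 8.27%, and of Col6a3, 8.66%, and the percent at the called cytosine of Col1a1, 2.24%, each above the other NSun2 -/- libraries. The numbers of listed cytosines of Col1a2, 1126, and Col3a1, 1018, lay below the others. This library was also the least covered of the 8, and the part of depth in these values was not tested.

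The other libraries were WT replicate 4, with 5.75% of Col1a2 reads unconverted, above the other WT libraries, and NSun2 -/- replicate 4, in which Col5a1 took 0.117% of exonic coverage, below the other NSun2 -/- libraries. In NSun2 -/- replicate 4 the 5S RNA gene n-R5s109 took 35.2% of exonic coverage, and its part in the low share of Col5a1 was not tested.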

How the results depend on the processing

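The call of the Col1a1 cytosine at chr11:94803372 held in 12 of 13 alternatives, most of them the same edgeR test with a library left out. Among the 12, dropping the minimum difference could not have undone the call. With each library left out the difference was -13.8 to -13.2 points, with adjusted p values in edgeR from 1.76e-19 to 0.00272. The call was lost with limma on the logit, where the adjusted p was 0.331 and the collagen genes had 0 calls. Over all alternatives the adjusted p ran from 1.76e-19 to 0.331.

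In all exons, 4 cytosines were called lower with a minimum of 30 reads, 4 with limma and 12 with limma relative to coding exons, in place of 8. The limma counts rest on the logit, which depends on depth at cytosines without unconverted reads. Leaving out each library gave 3 to 8 lower and 0 to 2 higher in all exons, with 3 without NSun2 -/- replicate 1 or 4 and 4 without NSun2 -/- replicate 3 or WT replicate 1, 3 or 4. In the collagen genes it gave 1 lower each time and 0 to 1 higher. The 1 higher, without NSun2 -/- replicate 3, was Col1a1 chr11:94812485, at 3.04, 1.83, 2.15 and 5.32% in WT and 14.9, 32.7, 2.76 and 26.3% in NSun2 -/-. With the replicate block, the replicate number of the labels as a term, 7 were called lower, 1 of them in a collagen gene. Deviations of same-numbered libraries over 3868 genes correlated at -0.0492, -0.057, 0.0236 and -0.1164, and those of differently numbered libraries at -0.0951 to 0.1352. Whether the numbers pair the mice cannot be told from these values.

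Counts of genes called on coverage, 0 lower and 0 higher, moved with the setting. They were 33 and 61 with DESeq2, 19 and 3 with limma, 23 and 11 with limma and a pseudocount of 10, 12 and 9 over cytosines listed in all 8 libraries, 9 lower with the floor scaled to depth, and 113 and 88 without a filter. Of the settings added after the data were seen, scaling to Col1a1, Col1a2 and Col3a1 gave 2 lower, and TMM over shared cytosines 6 and 6. Leaving out each library gave 0 to 28 lower and 0 to 1097 higher. The extremes of 28 and 1097 came without NSun2 -/- replicate 2, while leaving out WT replicate 2 gave 20 and 4, WT replicate 1 4 and 0, WT replicate 3 3 and 2, WT replicate 4 2 and 0, and NSun2 -/- replicate 1 3 and 0. None of the 8 genes was among those called in any setting. The cause was not tested.

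Of 152 values for the coverage of the 8 genes, 141 kept their direction. Col1a1 turned to 0.053 over cytosines listed in all 8 libraries and to 0.091 with the floor scaled to depth, and Col3a1 to -0.29 with TMM and to -0.22 with DESeq2. Leaving out each library gave -0.24 to 0.24 for Col1a1, -0.38 to 0.19 for Col1a2 and -0.12 to 0.33 for Col3a1, with both ends set by WT replicates 4 and 2. The cause was not tested.

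For percent unconverted per gene 0 genes were called in every setting, and 108 of 112 values kept their direction. Relative to coding exons, Col1a1 turned to -0.17, Col1a2 to -0.019 and Col3a1 to -0.040. Leaving out each library gave -0.019 to 0.64 for Col1a1, the lower end without NSun2 -/- replicate 2. The cause was not tested. Weighting cytosines equally moved 6 of 16 genotype means, as for Col1a1 from 2.45 to 5.15% in WT and from 3.59 to 9.34% in NSun2 -/-. The mean number of listed cytosines in NSun2 -/- over WT was 1.36, 1.18 with the floor scaled to depth, and 1.29 to 1.48 with each library left out.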

Other observations

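Several limits bear on the collagen values. The files list cytosines from 10 reads on, so a gene without listed cytosines is not shown to be absent, and thinly read genes gain cytosines in deep libraries. The files hold no single reads, so methylated and unconverted cytosines cannot be told apart read by read. Summed coverage is not a count of independent reads, and fits that take it as one rest on the spread between libraries. Among the 5922 tested collagen cytosines depth was very uneven, with 33846 reads at the called site in NSun2 -/- replicate 1. Types V and VI had no cytosine with 1000 reads in every library.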
